A study of Mus musculus with 16 samples.

Results

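The genes described here are 41 genes of the cell cycle, measured in the epithelium of the mouse cloaca and of the hindgut and urethra that come from it. They were taken by gene name, with no threshold on their values, from a list chosen with earlier results of these data known, and all 41 were found among the 23234 features of each deposited table. They fall by role into 10 genes of DNA replication, 18 genes of mitosis, 8 cyclins and kinases of the G1 phase, and 5 inhibitors of cyclin-dependent kinases. The study's stated purpose is an atlas of transcripts for the genital tubercle and its urethra.

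All animals were wild-type male embryos of the outbred CD1 stock, and no sample was a pool of animals. Tissue was isolated by laser capture from cresyl violet-stained cryosections. At embryonic day 10.5 (E10.5) the 2 regions were the dorsal and the ventral cloaca, the cavity into which the hindgut and the urinary tract both open. At E13.5 they were the hindgut, labelled as epithelium of the hindgut or rectum, and the epithelium of the pelvic urethra, which lies on the ventral side. Each of the 4 groups had 4 libraries, so that there were 16 libraries from 8 embryos, 4 per age, and both regions of an age came from the same embryos. The deposited tables hold 1 combined value per gene and region. No gene therefore has an error, a standard deviation or a p-value here, no difference below has a replicate check, and the depth is unknown.

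Values are FPKM, in which fragment numbers are divided by transcript length and by the library's mapped fragments, which allow levels to be set side by side between genes. A regional difference is the difference of log2(FPKM + 1), ventral minus dorsal at E10.5 and urethra minus hindgut at E13.5. Genes with at least 1 FPKM in either region were kept, and a kept gene was counted as higher or lower when the difference reached 1, which is 2-fold on that scale. That is a rule of size and not of significance. In bulk tissue, fewer dividing cells and less RNA per dividing cell cannot be told apart.

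A cell that enters the cycle first makes D cyclins, which with Cdk4 and Cdk6 phosphorylate the retinoblastoma protein and release E2F factors. E cyclins and Cdk2 then start DNA replication, which runs from origins loaded with the MCM helicase, and cyclins A and B with Cdk1 carry the cell into mitosis. Inhibitors such as the Cdkn1a and Cdkn1b proteins hold these kinases back. Genes of replication are largely driven by E2F sites, and genes of mitosis by a pair of promoter elements called the cell cycle genes homology region (CHR) and the CCAAT box.

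Promoters were read from RefSeq on GRCm38.p6, the assembly that mm10 stands for, as 250 bases before to 50 bases after the start listed first for a gene, and 34 of the 41 genes matched. The CHR was searched as TTTGAA, the CCAAT box as CCAAT, and E2F sites as TTTCGCGC, TTTGGCGC, TTTCCCGC or TTCCCGCC, all on both strands. The last 2 of these E2F motifs can overlap each other, and so can E2F matches on opposite strands. Of 15 mitosis promoters, 11 held a CHR and 14 a CCAAT box, against 18.1% and 37.9% of 27025 promoters. The CCAAT box alone was not particular to mitosis, since 7 of 9 replication promoters also held it. All 11 mitosis promoters with a CHR also held a CCAAT box, a combination found in 7.12% of all promoters and in 1 of 9 replication promoters. E2F motifs stood in 5 of 9 replication promoters and 1 of 15 mitosis promoters, against 3.57% of all. None of the 5 matched promoters of G1 genes held a CHR. A match is a description of letters, not of a bound site.

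The 4 promoters that follow stand for the groups: Cdk1 and Ccnb2 for mitosis, which differed in opposite directions at E10.5, Mcm6 for replication, and Cdkn1a for the inhibitors. Each runs 5′ to 3′ on the strand of its gene, from 250 bases before the start to 30 bases after it, with motif matches in capitals. They lie at chr10:69352883-69353162 on the minus strand (Cdk1), chr9:70421525-70421804 on the minus strand (Ccnb2), chr1:128359676-128359955 on the minus strand (Mcm6) and chr17:29090729-29091008 on the plus strand (Cdkn1a).
Cdk1: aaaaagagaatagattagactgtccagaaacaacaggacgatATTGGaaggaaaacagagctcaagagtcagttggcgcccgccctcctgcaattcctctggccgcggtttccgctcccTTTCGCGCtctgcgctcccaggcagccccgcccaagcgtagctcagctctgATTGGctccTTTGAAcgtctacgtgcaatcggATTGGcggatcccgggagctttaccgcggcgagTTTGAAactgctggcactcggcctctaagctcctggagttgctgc
Ccnb2: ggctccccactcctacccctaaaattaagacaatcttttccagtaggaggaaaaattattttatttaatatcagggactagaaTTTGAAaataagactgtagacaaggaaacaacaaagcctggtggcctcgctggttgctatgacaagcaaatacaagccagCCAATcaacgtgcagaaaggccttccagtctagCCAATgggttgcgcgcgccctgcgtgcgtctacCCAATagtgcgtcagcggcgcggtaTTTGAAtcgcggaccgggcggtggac
Mcm6: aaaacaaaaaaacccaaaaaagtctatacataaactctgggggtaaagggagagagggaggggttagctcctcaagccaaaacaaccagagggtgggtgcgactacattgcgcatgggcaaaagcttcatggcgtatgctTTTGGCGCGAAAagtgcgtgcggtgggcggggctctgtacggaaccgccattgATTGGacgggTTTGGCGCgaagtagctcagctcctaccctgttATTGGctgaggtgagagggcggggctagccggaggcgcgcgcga
Cdkn1a: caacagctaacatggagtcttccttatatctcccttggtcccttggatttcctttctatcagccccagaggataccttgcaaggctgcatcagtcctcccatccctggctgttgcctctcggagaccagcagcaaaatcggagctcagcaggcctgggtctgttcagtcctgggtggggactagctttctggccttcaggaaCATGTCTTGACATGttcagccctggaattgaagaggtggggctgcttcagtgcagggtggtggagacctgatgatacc
The Cdk1 stretch held 2 CHR, 3 CCAAT and 1 E2F match, and that of Ccnb2 held 2 CHR and 3 CCAAT matches. Mcm6 had 3 E2F matches, 2 of which overlap, and 2 CCAAT matches. Cdkn1a had no CHR, CCAAT or E2F match in this stretch. Its capitals mark a pair of CATG words with 6 bases between them, the core of the element bound by p53, which reads the same on both strands. This motif was searched after the sequence had been read, and 0.770% of all promoters hold it.

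By these markers the RNA was mainly that of epithelium, with red cell genes also high at E10.5. All 10 epithelial markers, Epcam, Cdh1 and keratins among them, were at 29.4 FPKM or more in every region, with sums of 2532 in dorsal cloaca, 2481 in ventral cloaca, 3293 in hindgut and 1955 in urethra. The 10 mesenchymal markers summed to between 62.3 and 97.6 FPKM, and the 6 endothelial markers to at most 2.07. Of the mesenchymal markers, Prrx1 alone stood at 44.7 FPKM in dorsal and 65.1 in ventral cloaca. Neuronal markers summed to at most 5.21 FPKM, germ cell markers to at most 4.33, and smooth muscle markers to between 2.14 and 13.3. Red cell genes summed to 886 FPKM in dorsal and 1183 in ventral cloaca, 35.3 in hindgut and 76.7 in urethra. Macrophage markers summed to 53.1 FPKM in urethra, where all 6 found were above 1 FPKM, against 0.703 in hindgut, where 2 were listed at 0, and 6.86 and 1.68 in dorsal and ventral cloaca. The part of these cells in the results below was not tested.

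The 28 genes of replication and mitosis were detected in every region, between 8.78 FPKM for Cdc6 in urethra and 247 FPKM for Pcna in hindgut. At E10.5 most stood slightly lower in the ventral than in the dorsal cloaca, while the D cyclins, Cdk6 and above all Cdkn1a stood higher ventrally. Of the 38 kept members, 4 were counted as higher ventrally (Ccnb2, Ccnd2, Cdk6 and Cdkn1a), where 10.6% of 12379 kept genes were. Mcm4 alone was counted as lower, where 9.62% of all kept genes were. The first share is close to the background, so the number of counted members is no result about the list. At E13.5 none of 40 kept members was counted in either direction, where 4.16% of 12369 kept genes were higher in urethra and 4.59% lower. Whether a count of 0 differs from these shares was not tested.

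**Figure D1:**
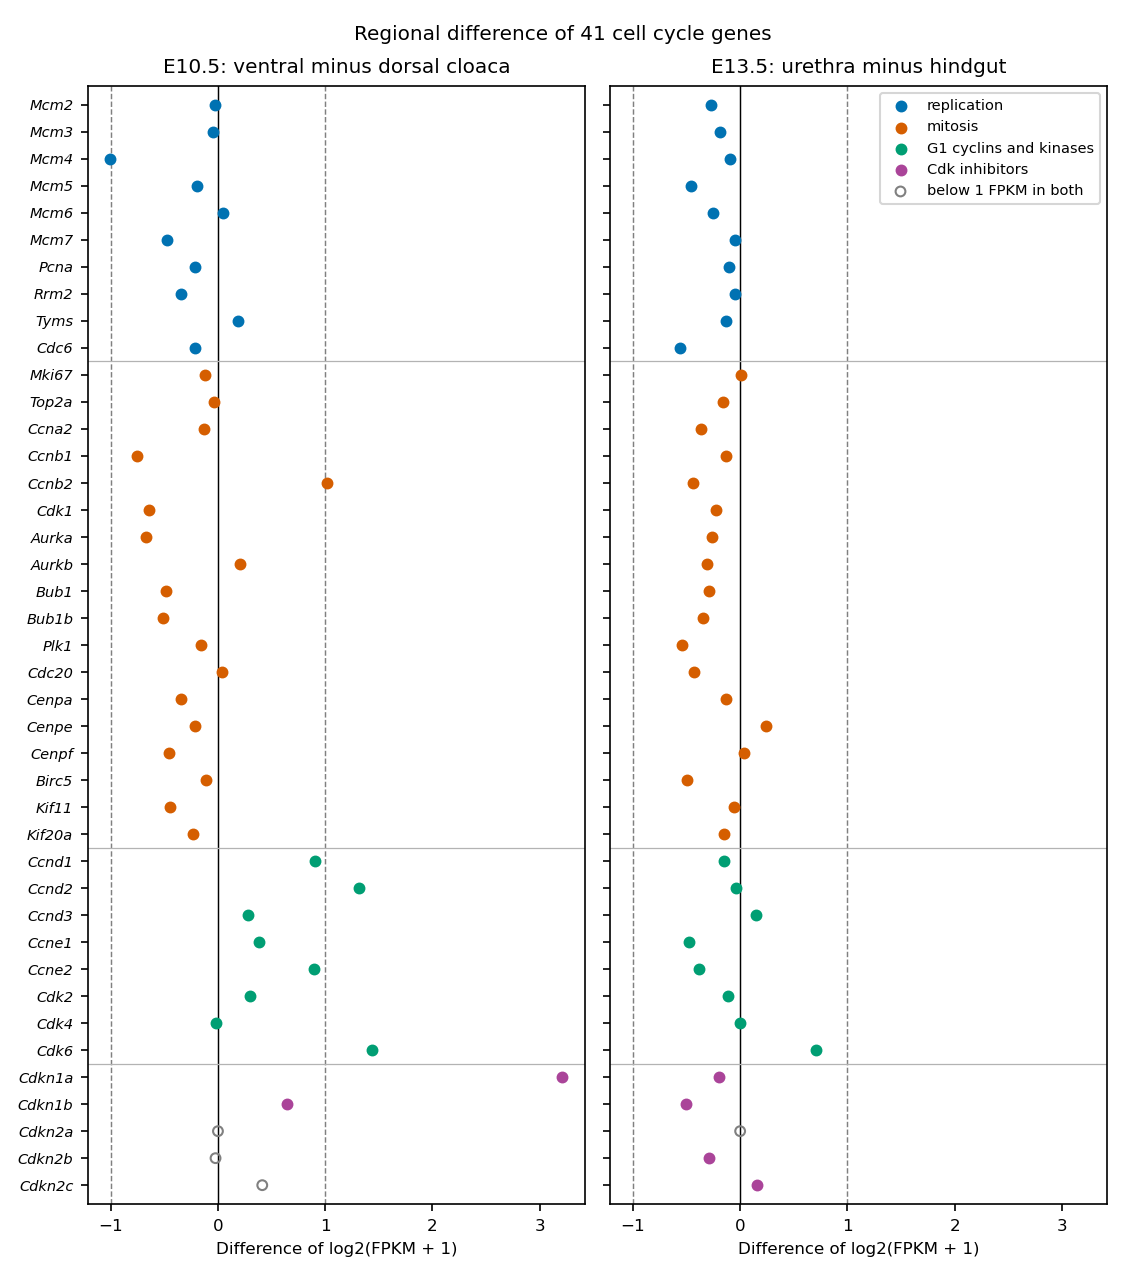
Each point is the regional difference of log2(FPKM + 1) of 1 of the 41 genes, ventral minus dorsal cloaca at E10.5 (left) and urethra minus hindgut at E13.5 (right), with dashed lines at the counting limit of 1 and open points for genes below 1 FPKM in both regions. At E10.5 Cdkn1a lies at 3.21 and Mcm4 at -1.002, while at E13.5 every point lies between -0.56 and 0.70.

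Of the replication genes, Mcm4 alone reached the counting limit between regions, and at E10.5 only. Mcm4, a subunit of the MCM helicase that unwinds DNA at replication forks, stood at 49.4 FPKM in dorsal and 24.2 in ventral cloaca, and at 38.0 in hindgut and 35.5 in urethra. Its difference was -1.002 at E10.5, at the counting limit, and -0.10 at E13.5. The other 5 subunits of the same ring did not share this gap at E10.5. Mcm2 stood at 46.2 and 45.4 FPKM in dorsal and ventral cloaca, Mcm3 at 30.1 and 29.1, Mcm5 at 34.8 and 30.2, and Mcm6 at 48.8 and 50.6. Mcm7 stood at 85.8 and 61.6 FPKM, and its span is shared with Mir25, Mir93 and Mir106b, so that its reads are less certain to be its own. Over the MCM genes, FPKM thus ran from 24.2 (Mcm4) to 61.6 (Mcm7) in ventral cloaca and from 30.1 (Mcm3) to 85.8 (Mcm7) in dorsal cloaca. These are RNA levels, and the amounts of protein were not measured.

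At E13.5 all 6 MCM genes lay lower in urethra than in hindgut by a small step, although Mcm4 and Mcm7 turned above 0 under upper-quartile scaling and Mcm7 under quantile normalization. The levels in hindgut and urethra were 63.8 and 52.5 FPKM for Mcm2, 62.4 and 54.5 for Mcm3, and 37.2 and 26.7 for Mcm5. Mcm6 stood at 82.5 and 69.2 FPKM and Mcm7 at 79.1 and 76.2. The widest MCM step was that of Mcm5, at -0.46, and the narrowest that of Mcm7, at -0.05.

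Pcna, the sliding clamp of DNA polymerases, was the most abundant replication gene in every region, at 226 and 195 FPKM in dorsal and ventral cloaca and 247 and 230 in hindgut and urethra. Rrm2, a subunit of the enzyme that makes deoxyribonucleotides, stood at 38.3 and 30.0 FPKM and then at 37.3 and 36.0. Tyms, the enzyme that makes thymidylate, stood at 31.3 and 35.8 FPKM and then at 33.8 and 30.7. These 3 genes varied little over the 4 regions, with a highest value 1.26, 1.28 and 1.17 times the lowest. Cdc6, which loads the MCM ring onto origins, was the least abundant, at 10.5 and 8.93 FPKM at E10.5 and at 13.4 in hindgut and 8.78 in urethra. Its difference of -0.56 at E13.5 was the widest of all members at that age on the lower side.

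**Figure D2:**
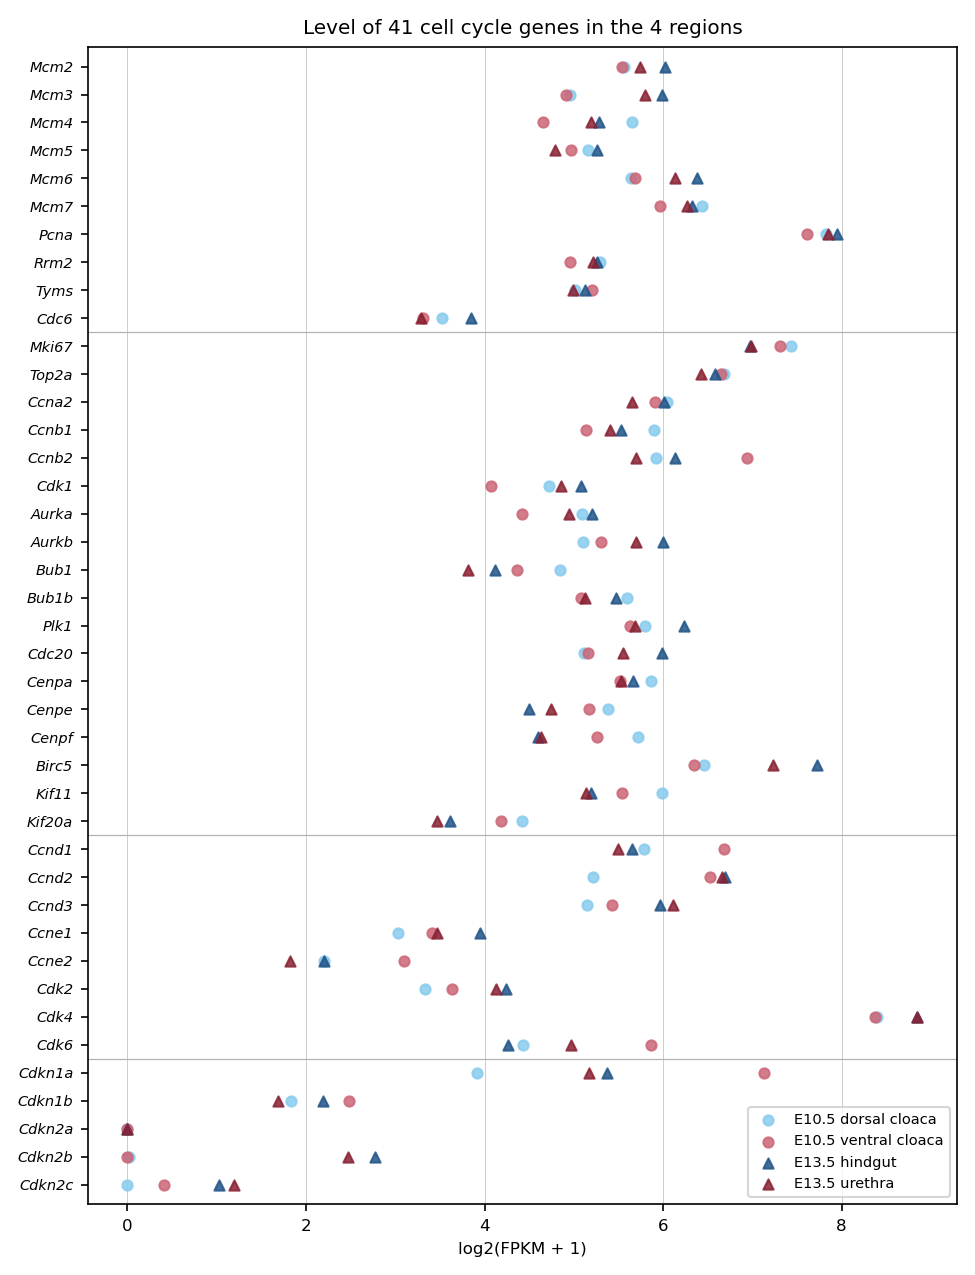
The level of each of the 41 genes, as log2(FPKM + 1), is plotted for dorsal and ventral cloaca at E10.5 (circles) and hindgut and urethra at E13.5 (triangles), 1 combined value per region. Among the 28 replication and mitosis genes, the highest value is between 1.17 (Tyms) and 2.63 (Birc5) times the lowest. Of the other genes, Cdk6 reaches 3.15 times and Cdkn1a spreads from 14.1 to 139 FPKM. Cdkn2b is near 0 at E10.5 and at 5.81 and 4.56 FPKM at E13.5.

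Of the 18 mitosis genes, 15 were lower ventrally at E10.5 by any size. Among these 15, the widest gaps were those of Ccnb1, Aurka and Cdk1, while Plk1 (-0.16) and Ccna2 (-0.13) differed less. Ccnb1, cyclin B1, stood at 58.6 FPKM in dorsal and 34.2 in ventral cloaca (-0.76), and at 45.3 in hindgut and 41.3 in urethra. Aurka, a kinase of the spindle poles, stood at 33.1 and 20.4 FPKM at E10.5 (-0.67) and at 35.9 and 29.8 at E13.5. Cdk1, the kinase partner of the B cyclins, stood at 25.4 and 15.8 FPKM (-0.65) and then at 33.0 and 28.0. None of these 3 gaps reached the counting limit.

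Ccnb2, cyclin B2, went the other way at E10.5. It stood at 59.5 FPKM in dorsal and 122 in ventral cloaca (1.02), and at 69.0 in hindgut and 50.8 in urethra (-0.44). Cyclin B2 thus made up 50.4% of the summed FPKM of both B cyclins in dorsal cloaca, 78.1% in ventral cloaca, 60.4% in hindgut and 55.1% in urethra. This is the single mitosis gene counted at E10.5, and it lies just past the limit: with a pseudocount of 5 the difference was 0.98, with upper-quartile scaling 0.91 and with quantile normalization 0.99. Aurkb, a kinase of the chromosomal passenger complex, and Cdc20, which activates the ubiquitin ligase that ends mitosis, were the other mitosis genes above 0 at E10.5, Cdc20 by 0.04 and below 0 under upper-quartile scaling. Aurkb stood at 33.3 and 38.6 FPKM at E10.5 and at 63.1 and 50.7 at E13.5. Cdc20, whose span is shared with Elovl1, stood at 33.7 and 34.6 FPKM and then at 62.5 and 46.0.

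The checkpoint and kinetochore genes stood lower ventrally by moderate steps at E10.5. Bub1 and Bub1b, kinases of the spindle checkpoint, stood at 27.8 and 19.7 FPKM (-0.48) and at 47.3 and 32.9 FPKM (-0.51) in dorsal and ventral cloaca. At E13.5 Bub1 stood at 16.3 FPKM in hindgut and 13.1 in urethra, and Bub1b at 43.4 and 33.9. Both were lower on the ventral side at both ages. Cenpa, the histone variant of centromeres, stood at 57.1 and 44.9 FPKM and then at 49.5 and 45.0. The outer kinetochore genes Cenpe, a motor protein, and Cenpf were 2 of the 3 mitosis genes higher in urethra by any size, where 51.7% of all kept genes were. Cenpe stood at 40.7 and 35.0 FPKM at E10.5 and at 21.6 in hindgut and 25.8 in urethra (0.24), and Cenpf at 51.6 and 37.4 and then at 23.2 and 23.8 (0.04).

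Motors and the remaining regulators followed the same order of regions at E10.5. Kif11, the motor that pushes spindle poles apart, stood at 62.2 and 45.5 FPKM at E10.5 (-0.44) and at 35.6 and 34.0 at E13.5. Kif20a, a motor of cytokinesis whose span is shared with Brd8 and Cdc23, stood at 20.4 and 17.1 FPKM and then at 11.2 and 10.0. Plk1, a kinase of mitotic entry and exit, stood at 54.4 and 48.6 FPKM at E10.5 and showed the widest mitosis gap at E13.5, with 74.1 in hindgut and 50.6 in urethra (-0.54). Birc5, survivin, a partner of Aurkb in the passenger complex, stood at 87.0 and 80.2 FPKM and then at 211 and 149 (-0.49). Ccna2, cyclin A2, whose span is shared with Exosc9, stood at 64.7 and 59.1 FPKM and then at 63.6 and 49.1 (-0.37).

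The 2 genes most used as marks of dividing cells hardly differed between regions. Mki67, which coats mitotic chromosomes, stood at 172 FPKM in dorsal and 158 in ventral cloaca (-0.12), and at 125 in hindgut and 126 in urethra (0.01). Top2a, the topoisomerase that untangles sister chromatids, stood at 102 and 99.5 FPKM (-0.03) and then at 94.9 and 84.6 (-0.16).

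Set side by side, 23 of the 28 replication and mitosis genes were lower ventrally by any size at E10.5, where 47.6% of all kept genes were. Their median was -0.21 against 0.04 for all kept genes. The standard deviation of their differences across genes was 0.38, against 0.90 for all kept genes, which include genes near 1 FPKM. It was 0.37 for the 14 genes of the proteasome core, so a narrow spread is not particular to the 28 genes. Under upper-quartile scaling 25 of 28 were lower, and under quantile normalization 23. Red cell genes, at 886 and 1183 FPKM, were higher on the ventral side in the same tissue, and their part in this result was not tested.

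At E13.5 all 10 replication genes and 15 of 18 mitosis genes were lower in urethra, where 48.3% of all kept genes were. The medians were -0.16 and -0.24, against 0.01 for all kept genes. The 14 genes of the proteasome core, taken as a reference of housekeeping genes, had a median of -0.17 with 11 of 14 lower, a step of the same size. With upper-quartile scaling 8 of these 14 were lower and with quantile normalization 7. The scaling also moved it: under upper-quartile scaling, which shifted the median of all kept genes from 0.01 to 0.12, 6 of 10 replication and 14 of 18 mitosis genes were lower, and under quantile normalization 7 of 10 and 14 of 18. Epithelial markers summed to less and macrophage markers to more in urethra than in hindgut, at 1955 against 3293 FPKM and 53.1 against 0.703, and their part in this result was not tested. Across both ages, 20 of the 28 genes were lower on the ventral side at each age, and none was higher at each. With 23 of 28 lower at E10.5 and 25 of 28 at E13.5, a smaller overlap was not possible. The count of 20 is therefore no sign of agreement between ages, and the share over all kept genes was not computed.

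Among the G1 genes the order of the regions was reversed at E10.5: 7 of 8 were higher ventrally by any size, where 52.4% of all kept genes were, and Cdk4 was at -0.02. Their median was 0.64. Ccnd2, cyclin D2, stood at 36.1 FPKM in dorsal and 91.3 in ventral cloaca (1.32), and at 103 in hindgut and 99.9 in urethra. Its span, chr6:127125709-127212419 on mm10, is shared with 9330179D12Rik. Ccnd1, cyclin D1, which the tables list jointly with Mir3962, stood at 54.1 and 102 FPKM at E10.5 (0.90) and at 49.2 and 44.3 at E13.5. Ccnd3, cyclin D3, whose span is shared with Bysl, stood at 34.4 and 41.9 FPKM and then at 61.4 and 68.0. The regional gap at E10.5 was therefore mainly that of cyclins D2 and D1.

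Taken as a family, the D cyclins summed to 125 FPKM in dorsal cloaca and 235 in ventral cloaca, and to 214 in hindgut and 212 in urethra. Cyclin D1 held 43.4% of the sum in both parts of the cloaca, but 23.0% in hindgut and 20.9% in urethra. Cyclin D2 held 29.0% in dorsal cloaca, 38.8% in ventral cloaca, 48.2% in hindgut and 47.1% in urethra. The leading D cyclin was thus D1 in the cloaca and D2 in hindgut and urethra.

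Of the kinases that D cyclins bind, Cdk6 differed between regions and Cdk4 did not. Cdk6 stood at 20.5 FPKM in dorsal and 57.2 in ventral cloaca (1.43), and at 18.2 in hindgut and 30.2 in urethra (0.70). It was the member with the widest regional difference at E13.5 and the only one above 0.5 there. Cdk4 was the most abundant of all 41 genes in every region, at 336 and 332 FPKM and then at 460 and 460. The ratio of Cdk4 to Cdk6 was 16.3 in dorsal cloaca, 5.80 in ventral cloaca, 25.3 in hindgut and 15.2 in urethra, so that it was lower on the ventral side at both ages.

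The E cyclins and Cdk2 act at the start of replication. Ccne1 stood at 7.14 and 9.64 FPKM in dorsal and ventral cloaca (0.39), and at 14.5 and 10.1 in hindgut and urethra (-0.48). Ccne2, whose span is shared with Ints8, stood at 3.60 and 7.54 FPKM (0.89) and then at 3.62 and 2.54 (-0.38). Cdk2, their kinase partner, stood at 9.11 and 11.4 FPKM and then at 17.9 and 16.4. Both E cyclins were higher ventrally at E10.5 and lower in urethra at E13.5. With a pseudocount of 0.1 the difference of Ccne2 at E10.5 was 1.05, past the counting limit.

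**Figure D3:**
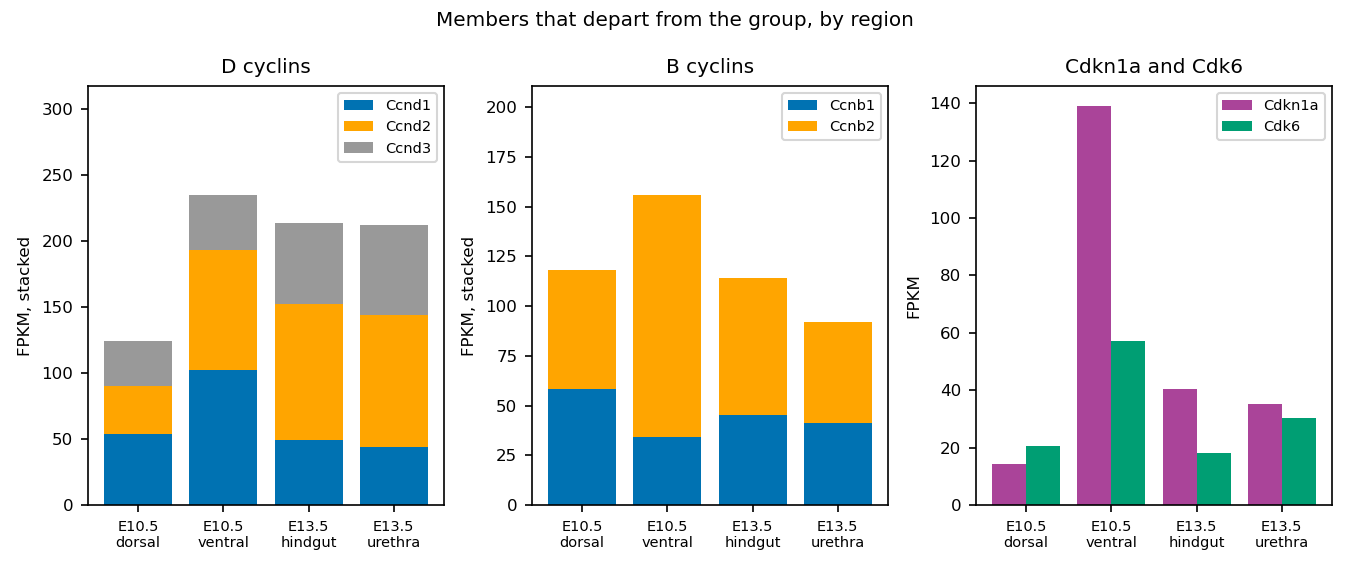
Bars give FPKM in the 4 regions, stacked for the D cyclins (left) and the B cyclins (middle) and side by side for Cdkn1a and Cdk6 (right), 1 combined value per region. The ventral cloaca has the tallest bar in each panel, with 235 FPKM of D cyclins and 156 FPKM of B cyclins, of which Ccnb2 is 122. Cdkn1a stands there at 139 FPKM and Cdk6 at 57.2.

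Cdkn1a, the inhibitor known as p21 and a classical target of p53, had the widest regional difference of all 41 genes at E10.5. It stood at 14.1 FPKM in dorsal and 139 in ventral cloaca, a ratio of 9.83 and a difference of 3.21. In hindgut and urethra it stood at 40.4 and 35.0 FPKM (-0.20). Its locus, chr17:29090986-29100722 on mm10, is shared with no other feature. Among features at 1 FPKM or more in the same region, Cdkn1a lay at the 59.2 percentile of level in dorsal cloaca and at the 96.4 percentile in ventral cloaca, then at 84.2 and 83.0 in hindgut and urethra. The difference at E10.5 exceeded 1 under every alternative tried.

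The other inhibitors were scarce. Cdkn1b, known as p27, stood at 2.57 and 4.57 FPKM at E10.5 (0.64) and at 3.56 and 2.22 at E13.5 (-0.50). Cdkn2b, known as p15, stood at 0.016 FPKM in dorsal cloaca, was listed at 0 in ventral cloaca, and stood at 5.81 in hindgut and 4.56 in urethra. Cdkn2c, known as p18, was listed at 0 in dorsal cloaca and stood at 0.33 FPKM in ventral cloaca, 1.04 in hindgut and 1.28 in urethra. Cdkn2a, which encodes p16 and p19Arf, was listed at 0 in all 4 regions. Only Cdkn1a and Cdkn1b passed the minimum of 1 FPKM at E10.5, so no summary of the 5 inhibitors was read there. Values listed at 0 can be failed estimates.

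Other genes of the pathway were taken from 5 further lists. Of 71 other mitosis genes, 51 were lower ventrally at E10.5 by any size, where 47.6% of all kept genes were, with a median of -0.29 against 0.04. Of the 71, 8 were counted as lower and none as higher, where 9.62% and 10.6% of all kept genes were, so that the share counted as lower was near the background. Fam64a, a regulator of the metaphase to anaphase step, stood at 22.4 FPKM in dorsal and 5.67 in ventral cloaca (-1.81). Cenpk and Cenpn, proteins of the inner kinetochore, stood at 17.2 and 6.44 FPKM and at 22.7 and 9.48 FPKM, and Cdc25b, a phosphatase that activates Cdk1, at 7.70 and 2.55. The spans of Cenpk and Cdc25b are shared with other features. At E13.5 none of the 71 was counted, where 4.16% of all kept genes were higher in urethra and 4.59% lower. By any size, 53 were lower in urethra, where 48.3% of all kept genes were, with a median of -0.15.

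Other replication genes were divided. Of 54, 30 were lower ventrally by any size at E10.5, near the 47.6% of all kept genes, with a median of -0.11. Only 2 were counted as lower and 1 as higher, where 9.62% and 10.6% of all kept genes were. Pold3, a subunit of DNA polymerase delta, stood at 38.4 FPKM in dorsal and 14.8 in ventral cloaca, and Cdc7, a kinase that fires origins, at 13.6 and 6.19. Cdc45, which completes the active MCM helicase, stood at 8.99 and 20.6 FPKM, the opposite way to Mcm4. At E13.5 none was counted, where 4.16% of all kept genes were higher in urethra and 4.59% lower. By any size, 35 were lower in urethra, where 48.3% of all kept genes were. Their median was -0.08, which became 0.03 under upper-quartile scaling.

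Regulators of the E2F, Rb and MuvB type, which switch the genes above on and off, stood higher ventrally at E10.5 in 13 of 20 cases, where 52.4% of all kept genes did, with a median of 0.36. Counted as higher were 5, where 10.6% of all kept genes were, among them Lin37 at 9.05 and 28.9 FPKM and Lin9 at 5.98 and 13.9, subunits of MuvB. Mybl2, an activator that joins MuvB, stood at 8.51 and 21.0 FPKM, and Rb1, the retinoblastoma gene, at 5.70 and 13.4, with a span shared with other features. Rbl2, at 0.39 and 2.59 FPKM, was the last of the 5. E2f5, an E2F of the repressive kind with a shared span, stood at 33.5 and 15.8 FPKM. It was the single one counted as lower, where 9.62% of all kept genes were. Rbl2 and E2f5 are named here after their values were seen. At E13.5 none of the 20 was counted, where 4.16% of all kept genes were higher in urethra and 4.59% lower.

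Of 21 other inhibitors and p53 targets, 4 were counted as higher and 2 as lower ventrally at E10.5, where 10.6% and 9.62% of all kept genes were, with a median of 0.37. The highest were the growth arrest genes Gadd45g, at 0.27 FPKM in dorsal and 12.8 in ventral cloaca (3.45), and Gadd45a, at 2.15 and 12.96 (2.15), whose span is shared. Cdkn2d, the inhibitor known as p19Ink4d, stood at 15.7 and 4.61 FPKM, and Sesn2, a stress gene, at 10.7 and 3.74. Also counted as higher, and named after their values were seen, were Cdkn3, a phosphatase of Cdk2, at 3.03 and 7.76 FPKM and Btg2, an antiproliferative gene, at 1.85 and 5.22. Of other p53 targets in this list, Gadd45a and Btg2 were thus counted as higher and Sesn2 as lower (-1.30). Sesn1 (0.21), Zmat3 (0.37) and Trp53inp1 (0.43) lay within the counting limit. Mdm2, which degrades p53, stood at 33.6 and 56.8 FPKM (0.74), the target Ccng1 at 13.3 and 12.8 (-0.06) and Phlda3 at 6.01 and 6.71 (0.14), and the p53 gene itself, Trp53, at 193 and 263 (0.44). These 4 genes, and Sesn1, Zmat3 and Trp53inp1 at this age, were picked after their values were seen.

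Cdkn1c, known as p57 and an inhibitor of the same family as Cdkn1a, was the most abundant inhibitor in dorsal cloaca, hindgut and urethra. It stood at 72.8 FPKM in dorsal and 119 in ventral cloaca (0.71), and at 69.5 in hindgut and 113 in urethra (0.69). It was chosen for mention after its values were seen, and is higher on the ventral side at both ages by nearly the same step. In the same list at E13.5, Sesn1 stood at 5.26 FPKM in hindgut and 16.1 in urethra and was the single one of 21 counted as higher, where 4.16% of all kept genes were. Gadd45b at 7.97 and 1.81 FPKM and Tob1 at 16.9 and 7.27 were counted as lower, where 4.59% were.

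Myc, a transcription factor of cell growth that induces D cyclins and represses Cdkn1a in many cells, stood at 16.5 FPKM in dorsal and 95.4 in ventral cloaca (2.46), and at 14.9 in hindgut and 31.6 in urethra (1.04). Myc and Cdkn1a were therefore both higher in the ventral cloaca. Mxd4, a repressor of the same family, stood at 14.4 and 6.36 FPKM at E10.5 (-1.06) and at 11.7 and 19.3 at E13.5. The remaining 7 of the 9 Myc family genes found lay within the counting limit at both ages.

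**Figure D4:**
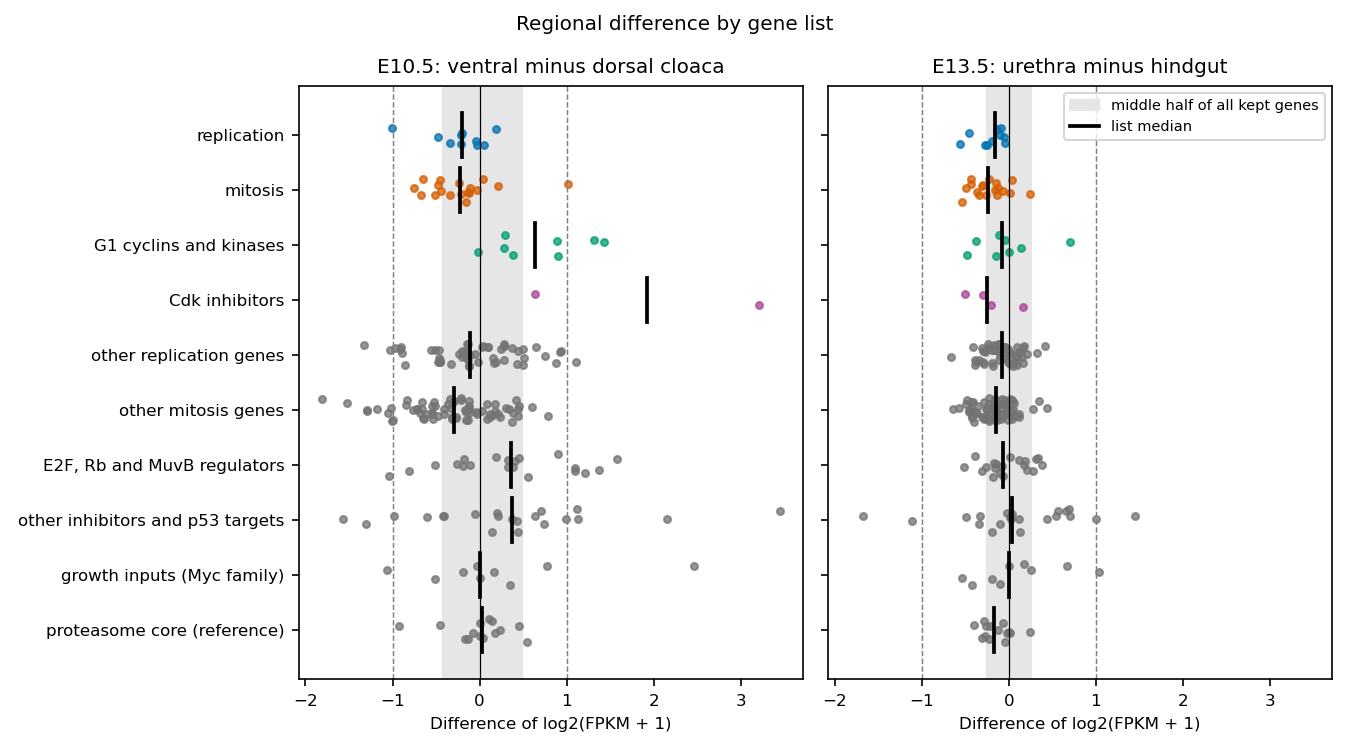
Each point is the regional difference of log2(FPKM + 1) of a kept gene, by list, at E10.5 (left) and E13.5 (right); black bars are list medians and the grey band holds the middle 50% of all kept genes. At E10.5 the medians are -0.20 for replication, -0.22 for mitosis and 0.64 for G1 genes, while at E13.5 all medians shown lie between -0.25 and 0.04.

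The last comparison sets E13.5 beside E10.5 on each side. The 2 ages stand in separate tables that may have been normalized separately. Column sums were 433416 and 424724 FPKM at E10.5 and 708752 and 661939 at E13.5. Age and scaling therefore cannot be told apart in the values below. On the dorsal side, 6 of 40 kept members were counted as higher in hindgut than in dorsal cloaca, where 17.6% of 12550 kept genes were, and 1 as lower, where 10.8% were. On the ventral side, 1 was counted as higher in urethra than in ventral cloaca, where 15.9% of 12572 kept genes were, and 4 as lower, where 10.4% were. Upper-quartile scaling moved the second split to 4 higher and 2 lower, and that of all kept genes from 1997 higher and 1311 lower to 2667 and 906, with a shift of their median from 0.02 to 0.26.

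Replication and mitosis genes as a group were level between ages. Of 28, 14 were higher in hindgut than in dorsal cloaca by any size and 14 lower, where 52.6% and 47.4% of all kept genes were, with a median of 0.03. Ventrally 16 were higher and 12 lower, where 50.9% and 49.1% of all kept genes were, with a median of 0.05. Taken apart, replication genes had medians of 0.12 dorsally and 0.25 ventrally, with 7 of 10 higher on each side. Mitosis genes had a median of -0.11 on each side. The proteasome core had medians of 0.66 dorsally and 0.48 ventrally, with 13 and 12 of 14 genes higher. The split of the 28 followed the scaling. Under upper-quartile scaling 15 and 20 were higher on the dorsal and ventral side, and under quantile normalization 11 and 13.

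Of the 4 members counted as higher in ventral cloaca at E10.5, Ccnb2, Cdk6 and Cdkn1a were lower in urethra than in ventral cloaca, and Ccnd2 was not. They were picked by the same ventral value that starts this step. A fall is therefore partly expected from the choice alone, and no replicate can check it. Cdkn1a went from 139 to 35.0 FPKM on the ventral side (-1.96) and from 14.1 to 40.4 on the dorsal side (1.45), so that the sides were level at E13.5. Ccnb2 went from 122 to 50.8 FPKM ventrally (-1.25), Ccnd1 from 102 to 44.3 (-1.19) and Ccne2 from 7.54 to 2.54 (-1.27). Dorsally the steps of these 3 were 0.21, -0.13 and 0.01. Ccnd2 showed the other route to equality, with 36.1 to 103 FPKM dorsally (1.49) and 91.3 to 99.9 ventrally (0.13). Under upper-quartile scaling Ccnb2 and Ccnd1 fell short of the limit ventrally, at -0.99 and -0.93.

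Cdkn2b was the member with the widest step between ages that went the same way on both sides, 2.75 dorsally and 2.48 ventrally, from a level near 0 at E10.5. Birc5 went from 87.0 to 211 FPKM dorsally (1.27) and from 80.2 to 149 ventrally (0.89), and Mcm3 from 30.1 to 62.4 (1.03) and from 29.1 to 54.5 (0.88). Cdkn2c, the last of those counted dorsally, reached 1.03 from a level listed at 0. Within mitosis the genes parted. Birc5, Aurkb, Cdc20, Cdk1, Aurka and Plk1 were higher at E13.5 on both sides, though Plk1 ventrally at 0.06 turned negative under quantile normalization. Cenpf, Cenpe, Kif11, Kif20a, Bub1, Mki67, Top2a and Ccna2 were lower on both, though Top2a ventrally (-0.23) and Ccna2 dorsally (-0.03) turned positive under upper-quartile scaling. Cenpf was counted as lower dorsally, at 51.6 and 23.2 FPKM (-1.12), and stood at 37.4 and 23.8 ventrally (-0.63).

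**Figure D5:**
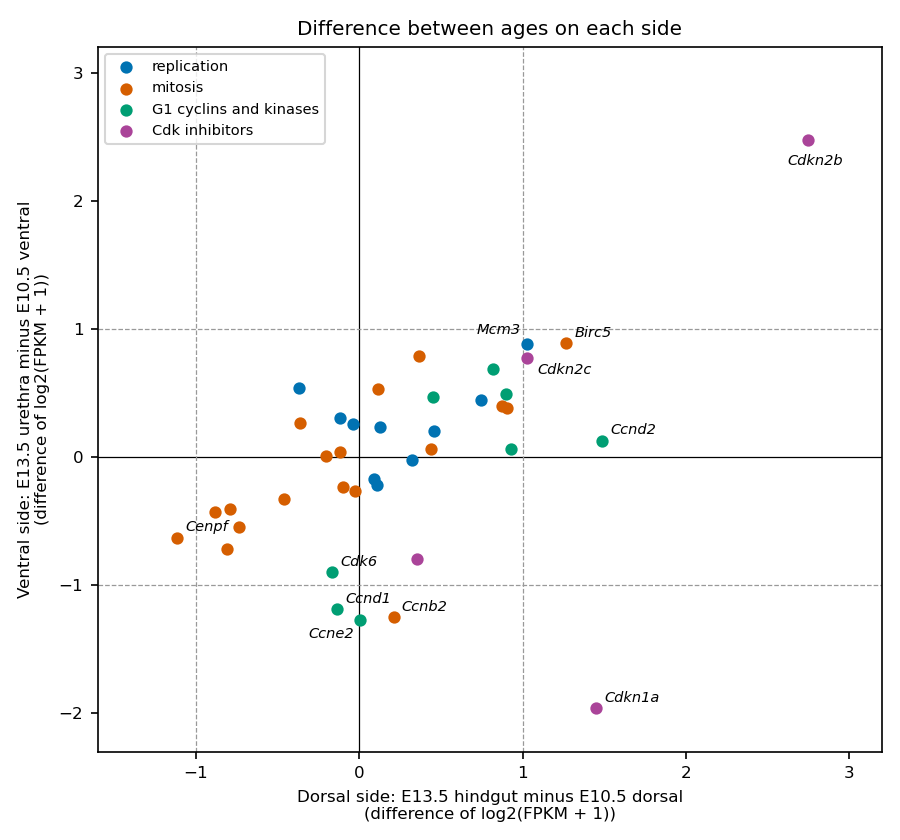
Each point is 1 of the 40 kept members, with the difference of log2(FPKM + 1) between E13.5 and E10.5 on the dorsal side (horizontal axis) and on the ventral side (vertical axis), and dashed lines at the counting limit of 1. Cdkn2a, listed at 0 in every region, is not drawn. Cdkn2b lies at 2.75 and 2.48, Cdkn1a at 1.45 and -1.96, and Ccnd2 at 1.49 and 0.13.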

How the data were processed

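Per the labels, RNA of laser-captured epithelium was amplified and sequenced in 16 libraries, in 4 groups of 4. The authors deposited FPKM values in 2 tables, 1 per age, with 2 region columns each, per the file headers. Per the submitters' processing notes, Cufflinks 2.2.1 and mm10 were used. Not given in the sources used here were the aligner, the annotation, the strand setting and how libraries were combined. Reads of antisense genes may therefore be mixed, and 7 members share their span with another feature. In a check for whole reads, at most 26.0% of low values lay within 0.1 of a whole number for any step. Its gene lengths came from a GENCODE annotation that need not be the one used, and each value combines 4 libraries. The check therefore could not give the depth, which is unknown. Starts in the tables were raised by 1 to count from 1. There were 0 columns without a region.

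The members and all lists were chosen with earlier results of these data known. Differences of log2(FPKM + 1) were computed with pandas 2.3.3 and numpy 2.4.6 on Python 3.11.15, and figures were drawn with matplotlib 3.10.9. A pseudocount of 1 understates changes of low genes, and a minimum in either region lets genes in through the region where they are higher. The planned linear model needs values per library, so values are described without a test. The steps were tested on simulated data. All 41 members are named, and of each of 5 wider lists up to 4 genes per age with the largest difference among those past 1 and at 5 FPKM or more in the higher region; exceptions are stated. Of 290 list entries, 3 matched no feature. One line of each table was left empty and not analysed here. Alternatives were pseudocounts of 0.1 and 5, no minimum or a minimum of 5 FPKM, upper-quartile scaling over features above 0, and quantile normalization.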

Additional observations from a re-analysis of the deposited data

How the results depend on the processing

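No paired analysis was possible because the tables give 1 combined value per region, which also leaves no library to omit. Of the group counts and medians under the alternatives, 12 moved by more than the limit set (1.5 times for a count, and for a median the standard deviation over proteasome genes) and 180 by less, and no called gene changed sign. Medians near 0 did change sign among both. With a pseudocount of 5, no member was counted as lower in ventral cloaca, since Mcm4 came to -0.90. The median of the inhibitors at E10.5 (1.93) was 0.41 without a minimum and 3.21 with a minimum of 5 FPKM, which leaves Cdkn1a alone. On the dorsal side between ages it (1.24) was 2.51 with a pseudocount of 0.1, 0.69 with 5 and 2.10 with a minimum of 5. On the ventral side it (-0.01) was -1.96 with that minimum, 0.33 with a pseudocount of 0.1 and 0.14 with upper-quartile scaling. The number of members counted as higher in urethra than in ventral cloaca (1) was 2 with a pseudocount of 0.1, 0 with a pseudocount of 5 and 0 with a minimum of 5, and 4 with upper-quartile scaling, under which 2 in place of 4 were lower. Among single genes, 12 values came to fall short of the limit and 7 to pass it. Counts over all kept genes also moved: those higher and lower ventrally at E10.5 (1308 and 1191) were 401 and 325 with a pseudocount of 5 and 823 and 691 with a minimum of 5 FPKM. Those higher and lower in urethra (515 and 568) were 173 and 227 with a pseudocount of 5, 864 and 822 with 0.1, and 298 and 387 with a minimum of 5. Between ages they were 1077 and 479 dorsally (2213 and 1359) and 879 and 478 ventrally (1997 and 1311) with a pseudocount of 5. Under upper-quartile scaling, these medians turned: at E13.5 G1 genes from -0.08 to 0.04, other replication genes from -0.08 to 0.03 and E2F regulators from -0.07 to 0.05, and ventrally between ages mitosis from -0.11 to 0.14 and other mitosis genes from -0.05 to 0.19. Under quantile normalization, replication and mitosis together turned from 0.03 to -0.20 dorsally and from 0.05 to -0.04 ventrally between ages, all members from 0.12 to -0.02 and from 0.06 to -0.04, other replication genes dorsally from 0.06 to -0.04 and G1 genes ventrally from 0.09 to -0.03. The Myc family median, 0.01 at either age, turned to -0.08 and -0.06 under these scalings at E10.5, and at E13.5 to -0.05 with a minimum of 5 and -0.01 with quantile normalization. That of other inhibitors ventrally between ages turned from 0.06 to -0.01 with a minimum of 5. Unknown depth limits what low values can show.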
